A study of Mus musculus with 9 samples.

Results

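The genes described here encode 9 enzymes of serine synthesis and of the folate pathway that carries one-carbon units: Phgdh, Psat1, Psph, Shmt1, Shmt2, Mthfd1, Mthfd1l, Mthfd2 and Aldh1l2. They are 9 of the 12842 genes measured, and all 9 passed the filter on low values. The group was chosen from measured values, because Mthfd2 had been noted for its large fall in cells treated with MCTP, and the other 8 genes were taken as enzymes of the same pathway. For this reason the values of the 9 genes in the MCTP libraries are given as a description, without a test. Their values in cells with silenced Nsd2 were tested against control cells.

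The cells were NPK cells, mouse prostate cancer cells that the study isolated from lung metastases of NPK mice. All groups therefore share the genotype of that mouse model. Polyadenylated RNA was sequenced from 3 libraries of control cells, 3 of cells treated with MCTP and 3 of cells in which Nsd2, a histone H3 lysine methyltransferase, was silenced with short hairpin RNA (shNsd2). The paper names a single compound with the prefix MCTP, a small molecule that it used as an inhibitor of NSD2 and that its discussion calls putative. Cells were grown in RPMI medium with serum.

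The labels limit how the groups can be read. MCTP libraries 1, 2 and 3 are labelled with the compound numbers 39, 40 and 41, of which the paper names only 39, and whether 40 and 41 are other compounds or a numbering slip is not known, so a difference between these libraries cannot be told apart from a difference between compounds. All shNsd2 titles name Nsd2, whereas a second label gives a different gene for each library: Nsd2, Nsd3 and Nsd4. Neither the labels nor the paper's text gave the dose or duration of MCTP treatment for the NPK cells, and the labels do not say which hairpin was used, or whether the controls carried the luciferase hairpin that the study names as its control for silencing, or a vehicle. Nothing in the labels says that the 3 libraries of a group came from separate cultures. The p-values therefore rest on the spread between these samples, which may be technical.

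Values are on the log2 scale as deposited, and the transform used for these libraries is not named. For its profiles of lineage-marked cells the paper states that counts were normalized and their variance stabilized with DESeq2, and on such a scale 1 unit is about a doubling for strongly expressed genes and more than that for weakly expressed ones. Shares of the control level are back-transformed from these values, so they can understate changes of weakly expressed genes. The depth of each library is unknown. Because RNA was measured in bulk, fewer cells expressing a gene and less RNA per cell cannot be told apart.

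The silenced gene was examined first. Nsd2, listed under its older symbol Whsc1 (ENSMUSG00000057406.8, chromosome 5), had log2 values of 12.48, 12.43 and 12.42 in control libraries 1 to 3, 11.56, 11.61 and 11.68 in the shNsd2 libraries, and 12.15, 12.21 and 12.07 in the MCTP libraries. Each shNsd2 library lay below each control library, including those whose second label names Nsd3 or Nsd4. The shNsd2 level was 56.3% ± 2.47 of control (SD, n = 3), a log2 difference of -0.83 (SE 0.0408; limma, adjusted p = 2.26e-06). With MCTP the gene also fell, to 81.3% ± 3.91 of control, a log2 difference of -0.30 (SE 0.0537; limma, adjusted p = 0.00562), but after correction for the GC content of transcripts this was -0.12 and did not pass the threshold (limma, adjusted p = 0.0591). That correction also takes away true changes that run with GC content.

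Markers of the cell type were mixed. Of the epithelial markers, Krt8, Krt18 and Krt19 were strongly expressed (Krt8 at 16.21 to 16.35 in control cells) and Cdh1 was at 11.70 to 11.84 in control cells, while Epcam was at 3.54 to 3.55, below the filter of 3.78. With shNsd2, Krt8, Krt19, Cdh1 and Krt18 were at 86.6%, 78.8%, 87.0% and 99.5% of control, and with MCTP, in the same order, at 120%, 130%, 79.0% and 99.7%. Epcam was below the filter in all libraries and was not tested. Of the other epithelial markers 3 passed the threshold as lower with shNsd2, and 1 as higher and 1 as lower with MCTP. Over all genes tested, 24.8% passed as lower with shNsd2, and 18.0% as higher and 17.2% as lower with MCTP. The prostate genes Hoxb13 and Foxa1 were expressed, at 118% and 88.1% of control with MCTP and 103% and 92.6% with shNsd2, whereas Pbsn and the basal keratin Krt5 were not among the listed genes. Of the leukocyte markers only Cd68 was listed, with Ptprc and Lyz2 not among the genes, and its log2 value was 6.50, 6.51 and 6.60 in control, 7.20, 7.15 and 7.44 in MCTP and 6.78, 6.78 and 6.72 in shNsd2 libraries. The summed level of the basal markers Krt14 and Trp63, mostly Krt14, was 8.88, 9.06 and 9.04 in control, 10.10, 9.96 and 10.34 in MCTP and 9.80, 9.73 and 9.68 in shNsd2 libraries. Trp63 alone was at 4.94, 4.81 and 4.85 in control, 4.88, 4.95 and 4.86 in MCTP and 4.78, 4.77 and 4.77 in shNsd2 libraries, so with shNsd2 it lay below control while Krt14 lay above. The part of these markers in the values of the 9 enzymes was not tested. Of the lung epithelial markers Sftpc, Sftpb and Scgb1a1 none were listed, endothelial Cdh5 was at or under 3.71 in all libraries. Fibroblast Col1a1 was at 8.25, 8.12 and 8.23 in control, 7.94, 7.92 and 7.76 in MCTP and 7.88, 7.95 and 7.89 in shNsd2 libraries, so that all treated libraries lay below control, at 79.7% and 81.5% of it with MCTP and shNsd2. Col1a1 passed the threshold as lower in each comparison, as did 24.8% of all genes tested with shNsd2 and 17.2% with MCTP. The other fibroblast marker measured, Dcn, was below the filter in all libraries and was not tested. The part of Col1a1 in the values of the enzymes was not tested.

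One library in each group stood apart from its group. Across genes, the deviations of control library 1, MCTP library 2 and shNsd2 library 3 from their group means went together (Pearson's r 0.80 between the first and the second, 0.836 between the second and the third, and 0.637 between the first and the third; genes are not independent replicates). In these libraries the deviation was correlated negatively with the GC content of transcripts (r = -0.591, -0.695 and -0.646 over 12513 genes), and in the other 6 libraries positively (r from 0.351 to 0.673). Control library 1 was the lowest control library for 9 of the 9 enzymes, against 42.8% of all genes tested, and MCTP library 2 was the lowest MCTP library for 9 of 9, against 50.5%. Both counts were still 9 of 9 after GC correction, for which the shares of all genes were not computed. The GC content of the 9 transcripts ran from 48.8% to 57.3%, with a median of 52.4% against 51.0% for all genes. The shNsd2 differences of the 9 enzymes are therefore also given without these libraries, with 2 libraries a group, a choice made after the data were seen. Leaving out the libraries that stood apart shrinks the spread by construction. For single genes, only the differences are therefore given with 2 libraries a group, with no p-value and no call.

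Serine is made from the glycolytic intermediate phosphoglycerate by the enzymes Phgdh, Psat1 and Psph acting in sequence. Serine hydroxymethyltransferase then moves a carbon from serine to tetrahydrofolate and releases glycine, and the folate-bound carbon is oxidized or reduced by parallel sets of enzymes in the cytosol and in mitochondria to supply purine, thymidylate and methionine synthesis. Mitochondrial Mthfd2 is known as an enzyme of embryonic and transformed cells that is low in most adult tissues, and several genes of the pathway are known targets of the transcription factor Atf4.

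In control cells the levels of the 9 genes spanned a wide range. To compare genes, log2 of the transcript length in kb (median over protein-coding transcripts) was subtracted from the log2 value, which assumes that the deposited values were not already scaled by length. On this length-adjusted log2 scale the control level was 13.83 ± 0.164 for Phgdh, 13.03 ± 0.13 for Psat1, 12.58 ± 0.187 for Mthfd2 and 12.38 ± 0.194 for Shmt2 (SD, n = 3). It was 11.33 ± 0.154 for Psph, 10.90 ± 0.0983 for Mthfd1l, 10.12 ± 0.0532 for Mthfd1, 9.94 ± 0.0346 for Shmt1 and 5.97 ± 0.214 for Aldh1l2. Of the neighbours in this order, the libraries of Mthfd2 (12.36 to 12.71) and Shmt2 (12.16 to 12.51) overlapped, and those of the other neighbours did not. With the longest transcript instead, Shmt2 (12.37) came before Mthfd2 (11.85) and Mthfd1l (10.89) before Psph (10.22).

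Phgdh (ENSMUSG00000053398.5, chromosome 3), the dehydrogenase that opens the serine pathway, had log2 values of 13.86, 14.14 and 14.15 in control libraries 1 to 3, 14.29, 14.22 and 14.17 in shNsd2 and 13.66, 13.43 and 13.78 in MCTP libraries. The MCTP libraries all lay below the control libraries, and the shNsd2 libraries all lay above them, the lowest by a small margin. The log2 difference was -0.43 with MCTP (SE 0.109; 95% interval -0.68 to -0.18), or 74.3% ± 8.76 of control, and 0.17 with shNsd2 (SE 0.0749; limma, adjusted p = 0.0854). The latter passed the threshold of 0.05 after quantile normalization (0.19; limma, adjusted p = 0.0276). With 2 libraries a group the shNsd2 difference was 0.11. A processed pseudogene of Phgdh is annotated in the mouse genome, so reads could be shared and this gene's values are uncertain to that extent.

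Psat1 (ENSMUSG00000024640.3, chromosome 19), the aminotransferase of the pathway, was at 14.08, 14.30 and 14.31 in control, 14.41, 14.37 and 14.38 in shNsd2 and 13.50, 13.31 and 13.51 in MCTP libraries. Its groups did not overlap in any pair, with MCTP lowest and shNsd2 highest. With MCTP the log2 difference was -0.79 (SE 0.0848; 95% interval -0.99 to -0.59), or 57.9% ± 4.43 of control. With shNsd2 it was 0.16 (SE 0.0605; limma, adjusted p = 0.0566), which did not pass the threshold. It did without control library 3 (0.20; limma, adjusted p = 0.0388) and after quantile normalization (0.18; adjusted p = 0.0117), median centring (0.18; adjusted p = 0.0445) or GC correction (0.18; adjusted p = 0.0186). With 2 libraries a group the difference was 0.088.

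Psph (ENSMUSG00000029446.7, chromosome 5), the phosphatase that releases serine, was at 10.84, 11.09 and 11.11 in control, 11.20, 11.13 and 11.19 in shNsd2 and 10.44, 10.26 and 10.45 in MCTP libraries. Again no groups overlapped, although control libraries 2 and 3 lay close to the shNsd2 libraries. The log2 difference was -0.63 with MCTP (SE 0.0892; 95% interval -0.83 to -0.42), or 64.6% ± 4.66 of control, and 0.16 with shNsd2 (SE 0.0688; limma, adjusted p = 0.0820), which passed the threshold without control library 3 (0.21; limma, adjusted p = 0.0435). With 2 libraries a group it was 0.064. Without control library 1 the shNsd2 differences of Phgdh, Psat1 and Psph were 0.08, 0.08 and 0.07 (limma, adjusted p = 0.141, 0.0703 and 0.129).

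The cytosolic folate enzymes Shmt1 and Mthfd1 had the smallest differences with MCTP among the 9 genes. This order is a description, because that contrast chose the group. The 95% interval of Shmt1 overlapped that of Phgdh (-0.68 to -0.18), and a difference between compartments was not tested. Shmt1 (ENSMUSG00000020534.8, chromosome 11), the cytosolic hydroxymethyltransferase, had log2 values of 10.31, 10.37 and 10.37 in control, 10.53, 10.57 and 10.51 in shNsd2 and 10.13, 10.04 and 10.13 in MCTP libraries. All its shNsd2 libraries lay above all control libraries, and all its MCTP libraries below them. Shmt1 rose with shNsd2 by a log2 difference of 0.19 (SE 0.0368; 95% interval 0.10 to 0.27; limma, adjusted p = 0.00317), to 114% ± 2.27 of control, and by 0.18 with 2 libraries a group. Its difference with MCTP was -0.25 (SE 0.0516; 95% interval -0.37 to -0.13), or 84.2% ± 2.73 of control.

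Mthfd1 (ENSMUSG00000021048.5, chromosome 12), the cytosolic enzyme that joins the synthetase, cyclohydrolase and dehydrogenase steps in one protein, was at 11.66, 11.76 and 11.75 in control, 11.93, 11.91 and 11.84 in shNsd2 and 11.74, 11.61 and 11.76 in MCTP libraries. Its MCTP and control libraries overlapped, the only such case among the 9 genes, and its shNsd2 libraries lay above both. The difference with MCTP was -0.022 (SE 0.0592; 95% interval -0.16 to 0.11), or 98.5% ± 5.58 of control. Its sign turned under quantile normalization, median centring (0.011) and without MCTP library 2 (0.025), and it was -0.072 after GC correction. With shNsd2, Mthfd1 rose by a log2 difference of 0.17 (SE 0.0405; limma, adjusted p = 0.00766), to 113% ± 3.57 of control, and by 0.17 with 2 libraries a group.

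In mitochondria, Shmt2 (ENSMUSG00000025403.3, chromosome 10) performs the hydroxymethyltransferase step. Its log2 values were 13.34, 13.66 and 13.69 in control, 13.97, 13.89 and 13.88 in shNsd2 and 12.83, 12.60 and 12.87 in MCTP libraries, with no overlap between any of the groups. Shmt2 rose with shNsd2 by 0.35 (SE 0.0831; 95% interval 0.16 to 0.54; limma, adjusted p = 0.00772), to 127% ± 4.23 of control, and by 0.26 with 2 libraries a group. The difference with MCTP was -0.80 (SE 0.110; 95% interval -1.05 to -0.54), or 57.4% ± 5.65 of control.

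Mthfd2 (ENSMUSG00000005667.6, chromosome 6), the mitochondrial dehydrogenase and cyclohydrolase, had log2 values of 12.70, 13.00 and 13.04 in control, 12.91, 12.92 and 13.01 in shNsd2 and 11.70, 11.58 and 11.66 in MCTP libraries. The MCTP libraries lay far below all others and close to one another, whereas the shNsd2 libraries fell within the control range. The difference with MCTP, for which the gene was chosen, was -1.27 (SE 0.0919; 95% interval -1.48 to -1.05), or 41.4% ± 1.69 of control, and placed it at rank 7 from the largest fall among 12216 genes. With shNsd2 the difference was 0.033 (SE 0.0808; 95% interval -0.15 to 0.22; limma, adjusted p = 0.760). This value depended on control library 1: without it the difference was -0.07 (limma, adjusted p = 0.140), and with 2 libraries a group it was -0.10. Mthfd2 was chosen by a fall from these same control libraries, and a choice of this kind favours a lower value in the shNsd2 comparison as well.

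Mthfd1l (ENSMUSG00000040675.11, chromosome 10), which releases formate from the mitochondrial folate pool, was at 12.66, 12.83 and 12.83 in control, 12.80, 12.78 and 12.74 in shNsd2 and 12.27, 12.11 and 12.26 in MCTP libraries. As for Mthfd2, the shNsd2 libraries lay within the control range and the MCTP libraries below it. The difference was -0.56 with MCTP (SE 0.0698; 95% interval -0.73 to -0.40), or 67.6% ± 4.09 of control. With shNsd2 it was -0.0021 (SE 0.05; 95% interval -0.12 to 0.11; limma, adjusted p = 0.975), and its sign turned under median centring (0.015) and without control library 2 (0.027), control library 3 (0.025) or shNsd2 library 3 (0.015). With 2 libraries a group it was -0.041.

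Aldh1l2 (ENSMUSG00000020256.8, chromosome 10), the mitochondrial dehydrogenase that oxidizes formyltetrahydrofolate to carbon dioxide and yields NADPH, had the lowest level of the 9 genes. Its log2 values were 8.08, 8.27 and 8.50 in control, 8.54, 8.61 and 8.82 in shNsd2 and 7.08, 7.04 and 7.15 in MCTP libraries. The gap between the MCTP and control libraries was wider than the range within either group, and shNsd2 library 1 lay just above control library 3. The difference with MCTP was -1.19 (SE 0.102; 95% interval -1.43 to -0.96), or 43.4% ± 1.64 of control, at rank 10 from the largest fall. Aldh1l2 rose with shNsd2 by 0.38 (SE 0.106; limma, adjusted p = 0.0176), to 129% ± 13.0 of control, but this did not pass without control library 2 (0.37; limma, adjusted p = 0.0533) or without shNsd2 library 3 (0.30; adjusted p = 0.0584), and the difference was 0.19 with 2 libraries a group.

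**Figure D1:**
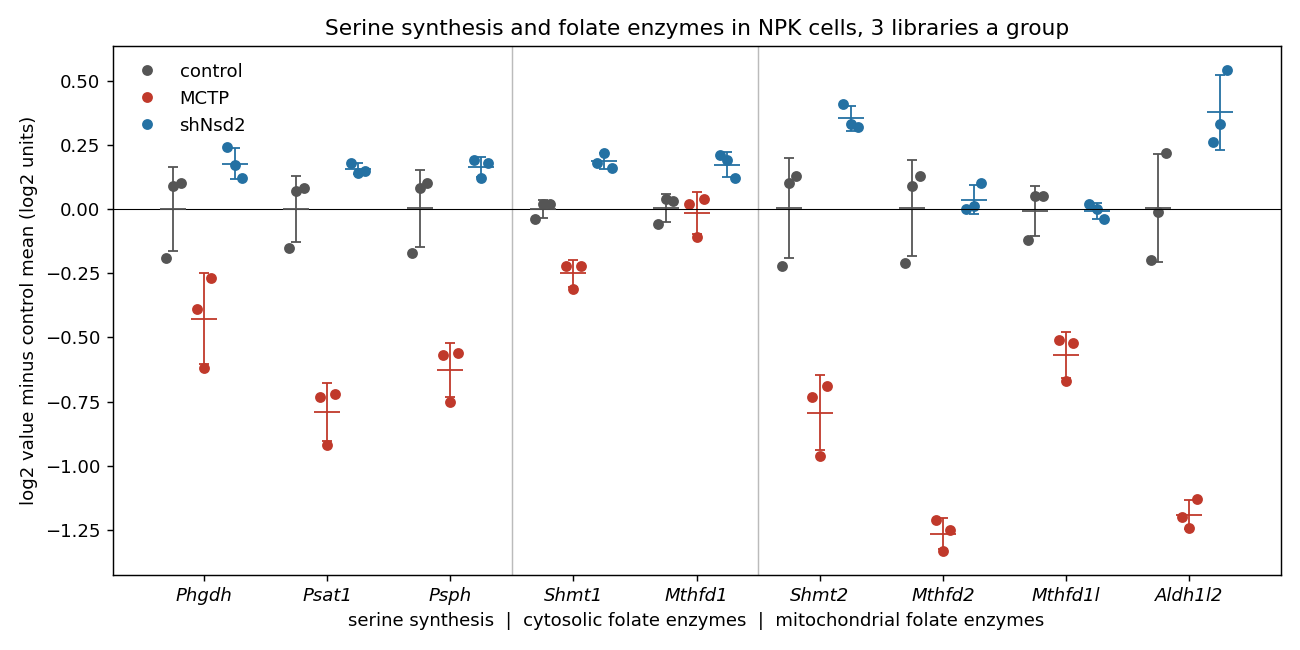
Log2 value of each of the 9 enzymes minus its control mean (y axis, log2 units) in control, MCTP and shNsd2 libraries, grouped on the x axis by pathway step; points are libraries, and bars give the mean and SD of 3 libraries. MCTP libraries lie below all control libraries for 8 of 9 genes, the exception being Mthfd1, whose sign depends on the scaling, and shNsd2 libraries lie above all control libraries for 7 of 9.

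Counted over the group, 4 of the 9 genes passed the threshold as higher with shNsd2 (Shmt1, Shmt2, Mthfd1 and Aldh1l2), against 23.1% of the 12205 genes tested, and 0 passed as lower, against 24.8%. For 7 of 9 every shNsd2 library lay above every control library, which held for 28.1% of all genes, and for 2 of 9, Mthfd1l and Mthfd2, the libraries overlapped. The median log2 difference of the 9 genes was 0.17, against 0.002 for all genes tested, and it was 0.08 without control library 1. For 8 of 9 every MCTP library lay below every control library, against 24.8% of all genes, and the median of the 9 was -0.63 against -0.006. Nothing is read from these MCTP values, because that contrast chose the group.

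The 2 comparisons share their control libraries, so the MCTP and shNsd2 libraries were also set side by side directly. For 9 of 9 genes every MCTP library lay below every shNsd2 library, against 26.5% of all genes. The log2 difference, MCTP minus shNsd2, was -1.57 for Aldh1l2, -1.30 for Mthfd2, -1.15 for Shmt2, -0.95 for Psat1, -0.79 for Psph, -0.60 for Phgdh, -0.56 for Mthfd1l, -0.44 for Shmt1 and -0.19 for Mthfd1, given as a description without a test. Nothing is read from these values either, because they rest on the MCTP libraries that chose the group.

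Several of the enzymes have a counterpart in the other compartment, and the balance within a pair was taken as the difference of the log2 values in each library. These pairs are related in sequence, and reads shared between them could not be examined. Shmt2 minus Shmt1 was 3.03, 3.30 and 3.32 in control, 3.44, 3.33 and 3.37 in shNsd2 and 2.70, 2.55 and 2.74 in MCTP libraries. All MCTP values lay below the control values, and all shNsd2 values lay above them, by a small margin in the lowest. Mthfd1l minus Mthfd1 was 1.0, 1.08 and 1.08 in control, 0.87, 0.87 and 0.90 in shNsd2 and 0.53, 0.50 and 0.50 in MCTP libraries, so that it lay below control in all treated libraries. Aldh1l2 minus its cytosolic counterpart Aldh1l1 was 1.71, 1.97 and 2.09 in control, 2.47, 2.55 and 2.74 in shNsd2 and 0.46, 0.56 and 0.46 in MCTP libraries. Here the shNsd2 libraries lay above and the MCTP libraries below control. Mthfd2 minus its mitochondrial paralog Mthfd2l was 4.73, 5.05 and 5.09 in control, 5.38, 5.42 and 5.31 in shNsd2 and 4.07, 3.77 and 4.09 in MCTP libraries, again with no overlap. No test of the balances is used: a two-sided exact permutation test of 3 libraries against 3 cannot give less than p = 0.1, which is what each of the 4 pairs gave with shNsd2. The mean differences from control in these balances with shNsd2 were 0.16, -0.17, 0.66 and 0.41, in the order given. Without control library 1 they were 0.073, -0.20, 0.56 and 0.30. Either gene of a pair can move its balance: with shNsd2 Mthfd2l was at -0.38, while Mthfd2 itself was at 0.033. How often other pairs of genes separate the groups in this way was not counted. Nothing is read from the MCTP balances, because that contrast chose the group.

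The pattern of Mthfd2 over the 9 libraries, relative to the control mean, was compared with that of the other 12095 genes tested in both comparisons, and likeness was measured as the root mean square difference in log2 units. The genes nearest to it were Pck2 (0.086), Chac1 (0.103), Asns (0.152), Slc7a5 (0.169) and Gpt2 (0.181). The pattern of Mthfd2 is mostly its fall with MCTP, for which it was chosen, so this order is a description and nothing is read from it. Pck2 is the mitochondrial phosphoenolpyruvate carboxykinase, Chac1 degrades glutathione, Asns makes asparagine, Slc7a5 carries large neutral amino acids and Gpt2 is a mitochondrial alanine aminotransferase. Their log2 differences with MCTP ran from -1.50 for Gpt2 to -1.14 for Slc7a5.

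Beyond the 9 enzymes, 53 other genes of folate, serine, glycine and methionine metabolism and of its regulation were listed, of which 44 were measured and tested. With shNsd2, 10 of the 44 passed as higher and 8 as lower, where 23.1% and 24.8% of all genes tested did. With MCTP, 9 passed as higher and 18 as lower, where 18.0% and 17.2% of all 12216 genes did. Leaving out each library in turn gave 6 to 11 higher and 7 to 9 lower with shNsd2, and 4 to 11 higher and 10 to 18 lower with MCTP. With shNsd2 the higher count was 6 without shNsd2 library 2 (16.7% of all genes) and 16 after GC correction (28.2% of all genes). After GC correction the MCTP counts were 12 higher and 19 lower (22.8% and 23.1% of all genes). Without MCTP library 1, 2 or 3 they were 4 and 10, 11 and 18, and 5 and 15, where the shares of all genes were 9.19% and 7.56%, 29.8% and 30.6%, and 12.8% and 10.5%. Without control library 1, 2 or 3 they were 5 and 12, 5 and 10, and 6 and 11, where the shares were 10.6% and 8.76%, 9.95% and 7.75%, and 10.8% and 9.27%. Unless stated otherwise, the genes named next passed the threshold in limma with each library left out in turn.

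With shNsd2, Slc19a1, the reduced folate carrier, rose by 0.46 (limma, adjusted p = 5.57e-05) and Ggh, which trims folate polyglutamates, fell by 0.26 (adjusted p = 0.00698), with 2 of 5 uptake genes higher (1 to 2 with a library left out) and 1 lower. With MCTP, the proton-coupled carrier Slc46a1 rose by 0.42 (limma, adjusted p = 0.00327), with 1 of 5 higher and 1 lower (0 to 1 with a library left out). Of 7 interconversion genes, 2 fell with shNsd2, Mthfd2l at -0.38 (limma, adjusted p = 0.000615) and Aldh1l1 at -0.29 (adjusted p = 0.000433). With MCTP 2 of these 7 were higher, among them Mthfsd, which rose by 0.32 (limma, adjusted p = 0.00627), and 2 were lower; with a library left out each count was 1 to 2. Mthfd2l was at -0.29 with MCTP (limma, adjusted p = 0.0188), which did not pass without MCTP library 1 (adjusted p = 0.0822) or control library 1, 2 or 3 (adjusted p = 0.0601, 0.0622 and 0.0610), and which was -0.14 after GC correction (adjusted p = 0.0316).

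Among the users of folate-bound carbon, the purine synthesis enzymes Atic and Gart rose with shNsd2 by 0.27 and 0.25 (limma, adjusted p = 0.000614 and 0.000931), as 2 of 3 genes, and with MCTP 1 of 3 passed as lower and 0 as higher, each 0 to 1 with a library left out and 0 as lower after median centring. The list for the methionine cycle held 7 measured genes, among them Ahcyl1 and Ahcyl2, listed as relatives of Ahcy and not shown here to act in the cycle. Of these 7 genes 2 were higher and 2 lower with shNsd2 (1 to 2 and 1 to 3 with a library left out). Ahcy, which hydrolyses adenosylhomocysteine, rose by 0.40 (limma, adjusted p = 0.000245) and the related Ahcyl2 fell by 0.26 (adjusted p = 0.00118). With MCTP 3 of these 7 were lower (2 to 3 with a library left out) and 0 higher, among them Ahcyl1 at -0.28 (limma, adjusted p = 0.00611) and the methionine synthase Mtr at -0.27 (adjusted p = 0.00618), the latter at -0.17 after GC correction (adjusted p = 0.0209). Gldc, the decarboxylase of the glycine cleavage system, rose with both, by 0.29 with shNsd2 and 0.39 with MCTP (limma, adjusted p = 0.000206 and 0.00059); of the 4 genes of that system 2 were higher with shNsd2 (1 to 2 with a library left out), and 1 was higher (1 to 2) and 1 lower (0 to 1) with MCTP.

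Among the 44 genes, the largest falls with MCTP were those of Cth, in serine use, and Slc1a5, in serine transport. Of 6 transport genes 4 were lower and 1 higher (0 to 1 with a library left out), where 17.2% and 18.0% of all genes tested were. The neutral amino acid carriers Slc1a5, Slc1a4 and Slc38a2 fell by 0.91, 0.53 and 0.51 (limma, adjusted p = 0.000144, 0.00288 and 0.00118). With shNsd2 1 of 6 was higher (0 to 1 with a library left out) and 1 lower, the latter being Sfxn3 at -0.22 (limma, adjusted p = 0.00317). Cth, which makes cysteine from cystathionine, fell by 1.14 with MCTP (limma, adjusted p = 0.000427) and rose with shNsd2 by 0.45 (adjusted p = 0.0115), or by 0.23 with 2 libraries a group. Of the 7 genes of serine and glycine use, 3 were higher and 2 lower with MCTP (1 to 3 and 1 to 2 with a library left out). With shNsd2 1 was higher (2 after median centring) and 1 lower. The latter was the serine racemase Srr, which fell by 0.65 (limma, adjusted p = 1.64e-05).

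Of 5 transcription regulators, 4 were lower and 1 higher with MCTP (2 to 4 and 0 to 1 with a library left out), and 0 were higher (0 to 3) and 1 lower with shNsd2, the latter being Nfe2l2, which fell by 0.23 (limma, adjusted p = 0.000893). Atf4 had log2 values of 13.99, 14.16 and 14.28 in control, 14.26, 14.25 and 14.28 in shNsd2 and 13.50, 13.40 and 13.50 in MCTP libraries. Its MCTP libraries lay below all control libraries and its shNsd2 libraries within the control range. Atf4 fell by 0.68 with MCTP (SE 0.0793; limma, adjusted p = 0.000954), and with shNsd2 the difference was 0.12 (SE 0.0650; limma, adjusted p = 0.164), which passed without control library 3 (0.19; adjusted p = 0.0312) and was 0.041 without control library 1 (adjusted p = 0.429) and 0.032 with 2 libraries a group. Atf3 was higher with MCTP by 0.53 (limma, adjusted p = 0.0128), and this did not pass without MCTP library 1 (adjusted p = 0.0563).

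**Figure D2:**
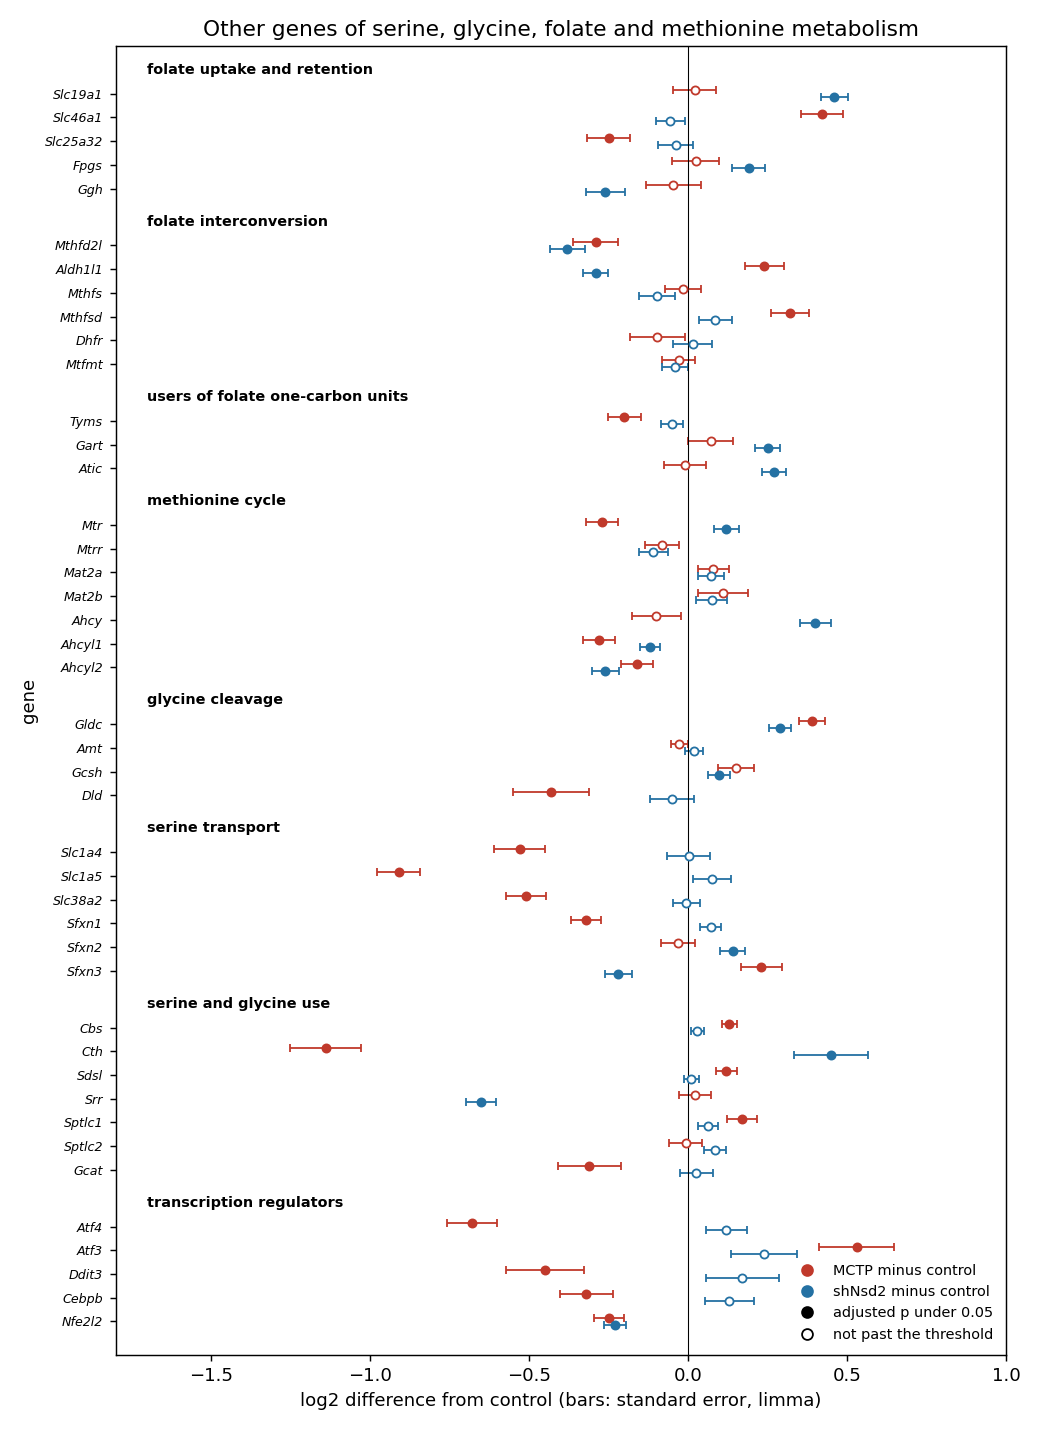
Log2 difference from control (x axis, log2 units) of other measured genes of the pathway and its regulators (y axis, by list), with MCTP in red and shNsd2 in blue; bars are standard errors from limma, and filled points have an adjusted p under 0.05. With MCTP the points lying farthest from 0 are Cth (-1.14) and Slc1a5 (-0.91), and with shNsd2 Srr (-0.65) and Slc19a1 (0.46).

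The promoters of the 9 genes were searched on both strands for the letters TGATGNAA, the core of the element read by Atf4 with C/EBP partners, for the E-box CACGTG and for the cyclic AMP response element TGACGTCA. RefSeq windows (GRCm38.p6) from 250 bases before to 50 after the start were matched for 8 of the 9 genes (all but Aldh1l2), in 9 windows. None of the 9 windows held TGATGNAA, CACGTG or TGACGTCA, which were present in 3.97%, 7.15% and 1.79% of all 32851 windows. This says only that these letters are not in these windows. The 250 bases before the start of Mthfd2, the gene for which the group was chosen, are shown on the minus strand at chr6:83317605-83317854 of GRCm38.p6, upstream of its annotated RefSeq start. Capitals mark the 1 stretch that differs from TGATGNAA at 1 letter, which begins 185 bases before the start; a stretch differing at 1 letter or none is found before the start in 45.7% of all windows, and marking it was chosen after the sequence was seen.
Mthfd2: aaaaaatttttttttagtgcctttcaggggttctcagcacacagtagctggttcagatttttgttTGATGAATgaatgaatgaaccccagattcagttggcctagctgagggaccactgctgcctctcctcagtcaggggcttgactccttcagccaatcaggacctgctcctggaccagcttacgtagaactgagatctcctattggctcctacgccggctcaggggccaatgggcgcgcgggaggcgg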

How the data were processed

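RNA-seq profiles of 9 libraries of NPK cells (3 control, 3 MCTP, 3 shNsd2) were analysed, grouped by their titles. The authors deposited log2 values for 12842 genes, already scaled between libraries; the transform is not named for them, while for profiles of lineage-marked cells the paper states variance stabilization of counts with DESeq2. The submitters' processing notes name bcl2fastq 1.8.4, TopHat, Cufflinks, DESeq, DESeq2 and mm9 without role or order. Of 12 value columns, 3 matched no sample and were not used. The members and gene lists were chosen with earlier results of these data known.

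The cut-off on low values was 3.78, which is the median taken within the lowest 10% of values, and genes exceeding it in at least 3 of the 6 libraries compared were fitted across all genes with limma 3.58.1 (eBayes with a trend; R 4.3.3), 1 pair of groups at a time, two-sided, with Benjamini-Hochberg adjustment and a threshold of 0.05. For the 9 members no p-value or call is given where MCTP libraries were compared. Intervals are 95% intervals from limma. Those of the 9 enzymes with MCTP are for the mean difference and are given as a description, not as a test, because that contrast chose the group. Procedures were tested on simulated data.

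Transcript lengths and GC content came from GENCODE M21, matched by Ensembl identifier for 12513 genes (97.4%). GC correction used lowess (span 0.3). Promoter windows are RefSeq's (GRCm38.p6), whereas the notes name mm9, so no other coordinates are given. Some genes of the lists and of the genotype are not reported here. Genes outside the group were named by rule: the 3 largest changes past the threshold, at most, in each list and comparison, Mthfd2l and Atf4, and the 5 genes nearest to Mthfd2; of those past the threshold, mainly genes that passed with every library left out are given, a restriction chosen after their values were seen. Alternatives were no filter, all 9 libraries in 1 fit, the replicate number as a block, each library left out, quantile normalization, median centring, no trend, GC correction, and, added after the data were seen, 2 libraries a group and GC correction between MCTP and shNsd2. Figures were drawn with matplotlib 3.10.9 (Python 3.11.15).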

Additional observations from a re-analysis of the deposited data

How the results depend on the processing

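Against 5836 genes called with shNsd2 and 4305 with MCTP, the MCTP count was 7575 with 2 libraries a group and 2046 to 7384 with each library left out in turn. With 2 libraries a group, 7 of the 9 enzymes passed with shNsd2 in place of 4 (all genes: 30.0% higher, 30.8% lower). The 4 were all higher, whereas the 7 included Mthfd2, whose difference was negative (-0.10). Leaving out libraries that stood apart shrinks the spread by construction, so these counts are no test, and no single gene is called from them. The median shNsd2 difference of the 9 enzymes was 0.11 in that fit in place of 0.17; it ran from 0.084 to 0.20 with a library left out. The cause was not tested. The shNsd2 difference of Mthfd2 was -0.10 with 2 libraries a group and ran from -0.074 to 0.098 with a library left out, and that of Mthfd1l was 0.015 with median centring and ran from -0.059 to 0.027. The MCTP difference of Mthfd1 was 0.00043 with quantile normalization, 0.011 with median centring and -0.072 after GC correction, and ran from -0.053 to 0.025 with a library left out; these causes were not tested.

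The replicate numbers are shared between groups. The deviations had a mean r of -0.266 between libraries of the same number, against 0.176 between different numbers. This cannot decide whether the numbers pair the libraries. The library that stood apart carries a different number in each group, and deviations from a group mean cancel within the group. With the replicate block 4515 genes were called with shNsd2 and 3399 with MCTP, and 4 of the enzymes passed with shNsd2, the same 4 genes. Among single genes, lists and levels, 776 alternative values kept their direction and side of the threshold (untested values moved by less than the spread), 8 no longer passed, 9 newly passed, 16 moved and 9 changed sign. Fits with 2 libraries a group are included in this tally, and passing the threshold in them is not read as a call. The depth of the libraries is unknown, so the precision of weakly expressed genes such as Aldh1l2 cannot be stated.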
